A study of Rattus norvegicus with 25 samples.

Results

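The miR-125 family is the mammalian counterpart of lin-4, the first microRNA described in the nematode Caenorhabditis elegans. Its members in the count table were rno-miR-125a-5p, rno-miR-125b-5p and rno-miR-3588, taken by name, which makes 3 of 764 rat mature microRNAs listed and 3 of the 260 with a count in any library. Small RNA had been sequenced from mitochondria of the red gastrocnemius, an oxidative hindlimb muscle, in 25 male Wistar-Kyoto rats with 1 library each. The trained group (n = 13) ran on a treadmill on 5 days per week for 4 weeks from allocation at 5 weeks of age, and the sedentary group (n = 12) stood on a treadmill that did not move for the same time. In all 25 libraries the mitochondria came from about 100 mg of muscle and had stood in RNase A (312 µg) for 1 h at 37 °C before lysis, a step that digests RNA outside the organelle. The labels give no litter, batch or day for a library, so the p-values measure the spread between these libraries.

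A microRNA is a short RNA that guides an Argonaute protein to messenger RNAs by its seed, bases 2 to 8. lin-4 was found as a regulator of developmental timing in the worm, and its mammalian relatives miR-125a and miR-125b are known as regulators of Lin28, of stem cell fate and, in muscle, of myoblast differentiation. Their genes lie beside genes of the let-7 and miR-99/100 families, and the members of such a cluster can be cut from 1 shared primary transcript.

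The sequences show which rows belong together. They come from RefSeq (rat assembly GRCr8), are written 5′ to 3′, and have the seed in capitals. The third mature microRNA of that table with the same seed, miR-351-5p, is shown for comparison.
miR-125a-5p: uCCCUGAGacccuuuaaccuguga
miR-125b-5p: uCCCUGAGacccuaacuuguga
miR-351-5p: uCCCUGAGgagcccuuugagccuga
miR-3588: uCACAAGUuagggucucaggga

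miR-125a-5p (24 bases) and miR-125b-5p (22 bases) were identical over the first 13 bases and differed in their 3′ part. miR-351-5p (25 bases) was identical to both over the first 8 bases. The sequence of miR-3588 was the exact reverse complement of miR-125b-5p over all 22 bases, and its own seed, CACAAGU, was not that of lin-4. In the RefSeq gene table, Mir3588 stood between Mirlet7c1 and Mir125b2, on the strand opposite to Mir125b2. By sequence, then, miR-3588 is the antisense partner of miR-125b and carries no lin-4 seed.

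The counts of miR-3588 equalled those of miR-125b-5p in 25 of 25 libraries, 7522 in each row. No source used here gives the strand setting of the authors' counting. The rows cannot be told apart, and every miR-125b-5p value below holds also for miR-3588. Neither row is independent evidence beside the other. miR-125b-5p itself has 2 precursors in RefSeq, Mir125b1 and Mir125b2, which give the same mature sequence, while miR-125a-5p has 1, Mir125a.

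The neighbours in RefSeq's gene order fixed the cluster partners. Mir125a followed Mir99b and Mirlet7e, Mir125b1 followed Mir100 and Mirlet7a-2, and Mir125b2 followed Mir99a and Mirlet7c1. let-7c-5p and let-7a-5p each have 2 precursors, so their counts could also come from loci outside these clusters.

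Total counts per library ranged from 12181 to 202388 with a median of 73449. A library is called here by its group and title number, and no number occurred in both groups. Trained libraries numbered 1 to 13 had totals of 26793 to 43510, and those numbered 14 to 32 had 72553 to 202388, with no overlap. Sedentary libraries had 30527 to 186006 and 12181 to 106661 in the same ranges. The boundary at 13 had been chosen in earlier work on these data after the totals were seen, and the labels do not say what the numbers stand for. Muscle microRNAs (8 listed, 6 with a count) made up 27.0% ± 7.21 (SD, n = 25) of counts, with miR-208a-3p, of heart muscle, and miR-208b-3p, of heart and slow skeletal muscle, at 0. Of other cell types, the summed smooth muscle list had 2.73% ± 1.30, the endothelial list 0.691% ± 0.415, the erythrocyte list 2.60% ± 1.24 (1 of 4 rows with a count, miR-486), the leukocyte list 0.197% ± 0.151 and the fibroblast list 0.470% ± 0.371. miR-451-5p, miR-144-3p and miR-144-5p of red blood cells were at 0, as were miR-155-5p, miR-223-3p and miR-142-3p of leukocytes. The count table holds microRNAs only, so no mitochondrial transcript could be used to check the organelle.

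miR-125a-5p and miR-125b-5p were present at like mean levels and varied widely between rats. Levels are given as CPM, the counts scaled to the same sum in every library, and each read stands for a whole mature microRNA, so no length scaling was applied. Rows with nearly equal counts enter that sum separately, among them miR-1-3p and miR-3571 (241423 and 241335) and miR-378a-3p and miR-3557-5p (136920 and 137458). Where the same reads were counted in both rows, the CPM and shares given here are too low. The muscle list held miR-1-3p but not miR-3571. miR-125a-5p had 4185 ± 3764 CPM (SD, n = 25), 0.419% of counts, which placed it 34th of the 764 rows by mean share. miR-125b-5p had 4258 ± 3679 CPM, 0.426% of counts and rank 32. Together both rows held 0.844% ± 0.690 of counts, 0.700% ± 0.691 in the trained and 1.00% ± 0.683 in the sedentary group, and the sum of all 3 members was 1.27% ± 1.04, in which the same reads may be counted in both miR-125b-5p and miR-3588. In bulk samples such as these, fewer cells of a type and less RNA per cell cannot be told apart.

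Among the cluster partners the order of mean levels was let-7c-5p with 16344 ± 6099 CPM, miR-99a-5p with 14817 ± 8785, miR-99b-5p with 6557 ± 3682, let-7a-5p with 5666 ± 3176, then miR-125b-5p and miR-125a-5p, miR-100-5p with 2280 ± 2024 and let-7e-5p with 591 ± 833 (SD, n = 25 each). Each neighbour in that order differed from the next by less than the larger of their SDs. miR-351-5p, of the same seed, had 2266 ± 1518 CPM. The members varied more than most partners: the coefficient of variation was 89.9% for miR-125a-5p and 86.4% for miR-125b-5p, against 37.3% for let-7c-5p, 56.1% for let-7a-5p, 56.2% for miR-99b-5p and 59.3% for miR-99a-5p. miR-100-5p, with 88.8%, was as variable, and let-7e-5p, with 141%, was more so.

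miR-125b-5p fell into separate sets of libraries. In 7 libraries it had 4 to 9 counts, or 23.5 to 328 CPM, and in the other 18 it had 91 to 1880 counts, or 1239 to 11856 CPM, with none in between. The 7 were trained 14, 21, 25 and 27 and sedentary 15, 19 and 29, so both groups held them. They were not the shallow libraries as a set: their totals ran from 12181 to 202388 with a median of 122365, against 26793 to 186006 with a median of 71204 for the other 18. The groups differed in this. The 4 trained ones had totals of 122365 to 202388, all above their group's median of 72553. The 3 sedentary ones had 12181 to 76048, all below their group's median of 76240. All 7 had numbers above 13, and none of the 12 libraries numbered 1 to 13 was among them.

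miR-125a-5p did not follow the same split. It had 1 to 3 counts in 3 libraries, trained 17, 18 and 21, and 24 or more in the other 22. In trained 17, miR-125a-5p had 2 counts (27.6 CPM, exact 95% binomial interval 3.34 to 99.6) while miR-125b-5p had 437 (6023 CPM, 5473 to 6613). In sedentary 29 the reverse held, with 298 counts of miR-125a-5p (3919 CPM, 3487 to 4389) and 9 of miR-125b-5p (118 CPM, 54.1 to 225). Trained 21 was low in both, with 3 and 4 counts of a total of 170233. The intervals cover counting error only, since the labels' protocols name no molecular identifiers.

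The log2 ratio of miR-125a-5p to miR-125b-5p (counts + 0.5) therefore ranged from -7.45 to 4.97 over the 25 libraries, with a median of -0.013 and an SD of 2.79. miR-125a-5p was the higher in 12 libraries and miR-125b-5p in 13. For comparison, the ratio of let-7c-5p to miR-99a-5p, partners from the Mir125b2 cluster, ranged from -2.11 to 2.60 with an SD of 0.96.

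**Figure D1:**
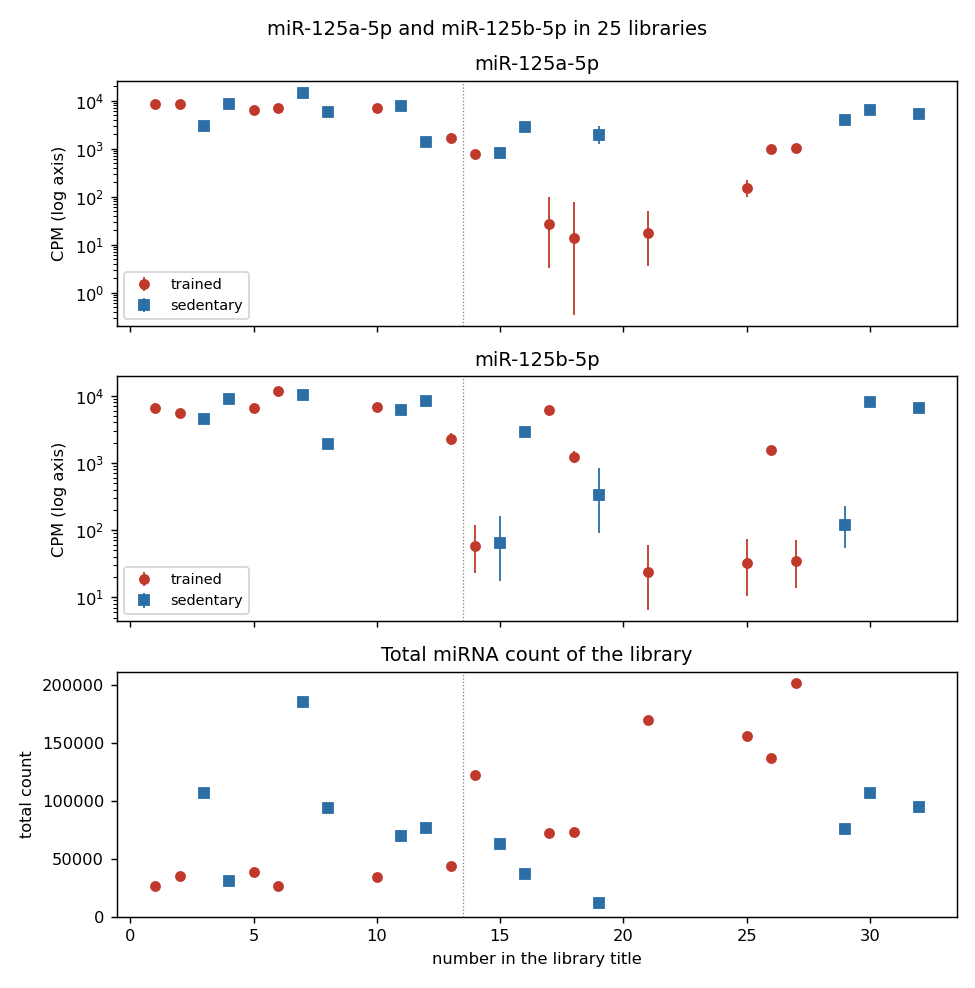
CPM of miR-125a-5p (top) and miR-125b-5p (middle), both on log axes, and the total miRNA count (bottom) of each library, against the number in its title. Circles are trained and squares sedentary libraries, bars are exact 95% binomial intervals, and the dotted line separates numbers up to 13 from those above; the 7 libraries with 4 to 9 counts of miR-125b-5p all lie to its right.

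In 4 of the 7 libraries with few miR-125b-5p counts, the opposite arm of its Mir125b1 precursor was well covered. A precursor hairpin yields a 5p and a 3p strand, and the 3p strands, unlike the 5p strand, name their own Mir125b gene. Their sequences, with bases 2 to 8 in capitals, tell the precursors apart.
miR-125a-3p: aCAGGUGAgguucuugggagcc
miR-125b-1-3p: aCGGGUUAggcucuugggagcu
miR-125b-2-3p: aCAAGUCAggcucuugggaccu

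miR-125b-1-3p had 969 counts in all, in 18 of 25 libraries. It exceeded the 5p strand in 4 libraries, all among the 7 with few miR-125b-5p counts: 244 against 4 in sedentary 15, 178 against 7 in trained 14, 93 against 9 in sedentary 29 and 73 against 5 in trained 25. In the other 21 libraries the 5p row was higher. In trained 21, trained 27 and sedentary 19 the 3p row was at 0 counts, which allows up to 3 counts, or 17.6, 14.8 and 246 CPM at their totals.

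miR-125b-2-3p had 590 counts, in 12 libraries with 13 to 140 each, and was at 0 in the other 13, including all 7 libraries with few miR-125b-5p counts. miR-125a-3p had 485 counts in 15 libraries and stayed below miR-125a-5p in 25 of 25. It was at 0 in trained 17, 18 and 21, where the 5p row had 1 to 3 counts. Its highest counts were 130 in trained 27, 112 in trained 26 and 102 in sedentary 4, beside 212, 134 and 259 of the 5p strand.

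Of the partners' 3p strands, miR-99b-3p had 835 counts in 7 libraries, of which 522 lay in trained 25 and 237 in trained 21. let-7c-1-3p had 79 counts, 74 of them in sedentary 29, and miR-351-3p had 142, of which 138 were in sedentary 15. let-7e-3p, miR-99a-3p, miR-100-3p, let-7a-1-3p, let-7a-2-3p and let-7c-2-3p were at 0 in every library, which allows up to 1.43 CPM over the 2094773 counts of all libraries.

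**Figure D2:**
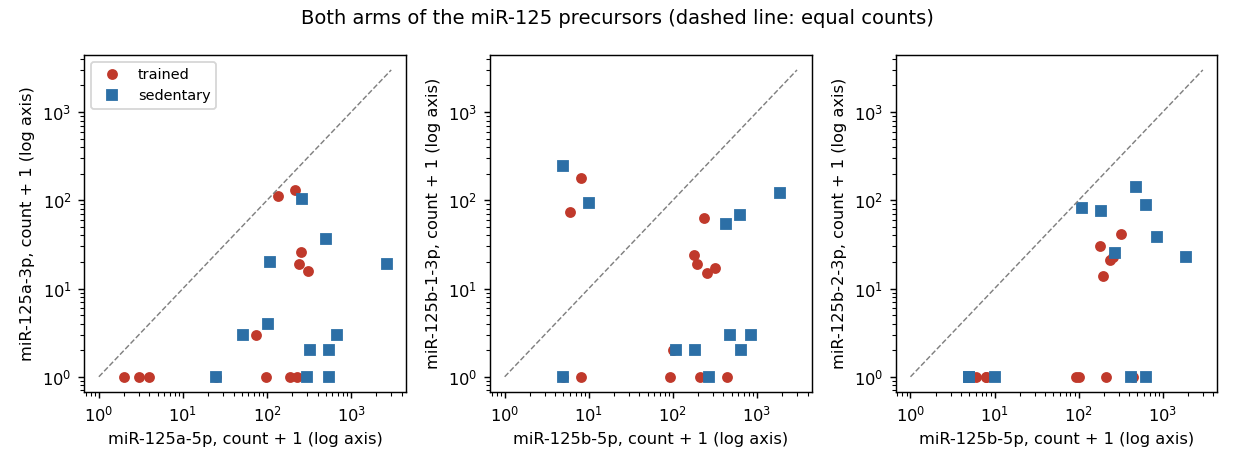
Count + 1 of the 3p row (vertical) against count + 1 of the 5p row (horizontal) for the 3 miR-125 precursors, on log axes, 1 point per library, circles trained and squares sedentary, with a dashed line at equal counts. In the middle panel 4 libraries lie above the line, with 73 to 244 counts of miR-125b-1-3p and 4 to 9 of miR-125b-5p.

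The next question was whether each member moved with its cluster partners across libraries. 15 correlations of log2 CPM were computed, 7 between members and partners and 8 with the total count and the summed muscle, smooth muscle and endothelial lists. CPM in these correlations used library sizes adjusted by TMM, the scaling of edgeR. The CPM levels above were scaled to the same sum instead. P-values came from two-sided permutation tests of 100000 resamples and were adjusted by Benjamini-Hochberg over all 15. All points share the library's depth and its other microRNAs.

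For miR-125a-5p no link with its own cluster passed the test. With let-7e-5p Spearman's rho was 0.11 (n = 25, permutation p = 0.614, adjusted p = 0.709) and Pearson's r was 0.24 (permutation p = 0.257, adjusted p = 0.429), and r was 0.20 without the 2 libraries farthest from the median of let-7e-5p. With miR-99b-5p rho was 0.21 (permutation p = 0.309, adjusted p = 0.421) and r was 0.19 (permutation p = 0.360, adjusted p = 0.461), and r was 0.17 without the 2 farthest. The miR-99b-5p value depended on scaling: by total counts alone rho was 0.53 (permutation p = 0.00743, adjusted p = 0.0279). It depended also on the title numbers, with -0.44 in the 12 libraries up to 13 and 0.15 in the 13 above, neither past the threshold. miR-125a-5p exceeded let-7e-5p in 21 of 25 libraries and was lower than miR-99b-5p in 19.

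Since the libraries fell into separate sets by miR-125b-5p, its correlations are given first within the libraries that had at least 10 counts of both rows. That choice was made after the split was seen, and it picks libraries by the counts that are correlated. The test as planned used all 25 libraries. With let-7c-5p, its neighbour in the Mir125b2 cluster, rho was 0.36 (n = 18, permutation p = 0.143, adjusted p = 0.405) and r was 0.48 (permutation p = 0.0423, adjusted p = 0.204), with 0.33 without the 2 farthest libraries. With miR-99a-5p, of the same cluster, rho was 0.038 (n = 18, permutation p = 0.881) and r was 0.059. With miR-100-5p and let-7a-5p, the neighbours of Mir125b1, rho was 0.011 (n = 15, permutation p = 0.974) and -0.029 (n = 17, permutation p = 0.912), and r was -0.079 and -0.093. None of these passed the threshold. Over all 25 libraries, rho was -0.26 with let-7c-5p, the opposite sign, 0.035 with miR-99a-5p and 0.064 with miR-100-5p. Those values also missed the threshold. In the 7 other libraries the counts of 4 to 9 were too few for a correlation.

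In every library let-7c-5p and miR-99a-5p exceeded miR-125b-5p. let-7c-5p had 6848 to 30539 CPM and miR-99a-5p 4600 to 36163 CPM over the 25 libraries, and neither of these partners showed a gap like that of miR-125b-5p. miR-100-5p, the neighbour of Mir125b1, did show one, in other libraries. It had 0 to 5 counts (0 to 82.1 CPM) in sedentary 8, 12, 16, 19 and 29, and 30 to 833 counts (761 CPM or more) in the other 20. Sedentary 19 and 29 were low in both miR-100-5p and miR-125b-5p, while sedentary 8, 12 and 16 had 181, 638 and 108 counts of miR-125b-5p. In the 7 libraries with few miR-125b-5p counts, let-7a-5p had 5187 to 16296 CPM.

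The members themselves were linked at rho = 0.44 in the 16 libraries with at least 10 counts of both (permutation p = 0.0916, adjusted p = 0.405), with r = 0.58 (permutation p = 0.0181, adjusted p = 0.172) and r = 0.29 without the 2 farthest libraries. Within title numbers up to 13 and above 13, rho was 0.17 (n = 12) and 0.28 (n = 13). Over all 25 libraries, 2 of the 7 member and partner correlations had passed the threshold, and both span the 2 sets of libraries. miR-125b-5p and let-7a-5p ran in opposite directions, with rho = -0.57 (permutation p = 0.00318, adjusted p = 0.0221) and r = -0.60 (-0.59 without the 2 farthest libraries). The sign was negative in the trained (-0.37) and the sedentary group (-0.71) and in numbers up to 13 (-0.42) and above 13 (-0.60), none of which passed after adjustment. By rho with miR-125b-5p over all 25 libraries, let-7a-5p stood 70th of 74 tested rows. miR-1-3p (-0.65) and miR-206-3p (-0.61), which are no cluster partners, were more negative, and miR-128-3p (-0.56) was close. The negative value was thus not particular to let-7a-5p. miR-125a-5p and miR-125b-5p ran in the same direction, with rho = 0.56 (permutation p = 0.00442, adjusted p = 0.0221) and r = 0.44, but r was 0.22 without the 2 farthest libraries, and the call was lost without trained 21 (adjusted p = 0.0600). Within the libraries with at least 10 counts of both rows, 0 of 7 passed. That choice leaves out low levels and lowers the number of libraries, so missing the threshold there does not show that a link was absent.

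**Figure D3:**
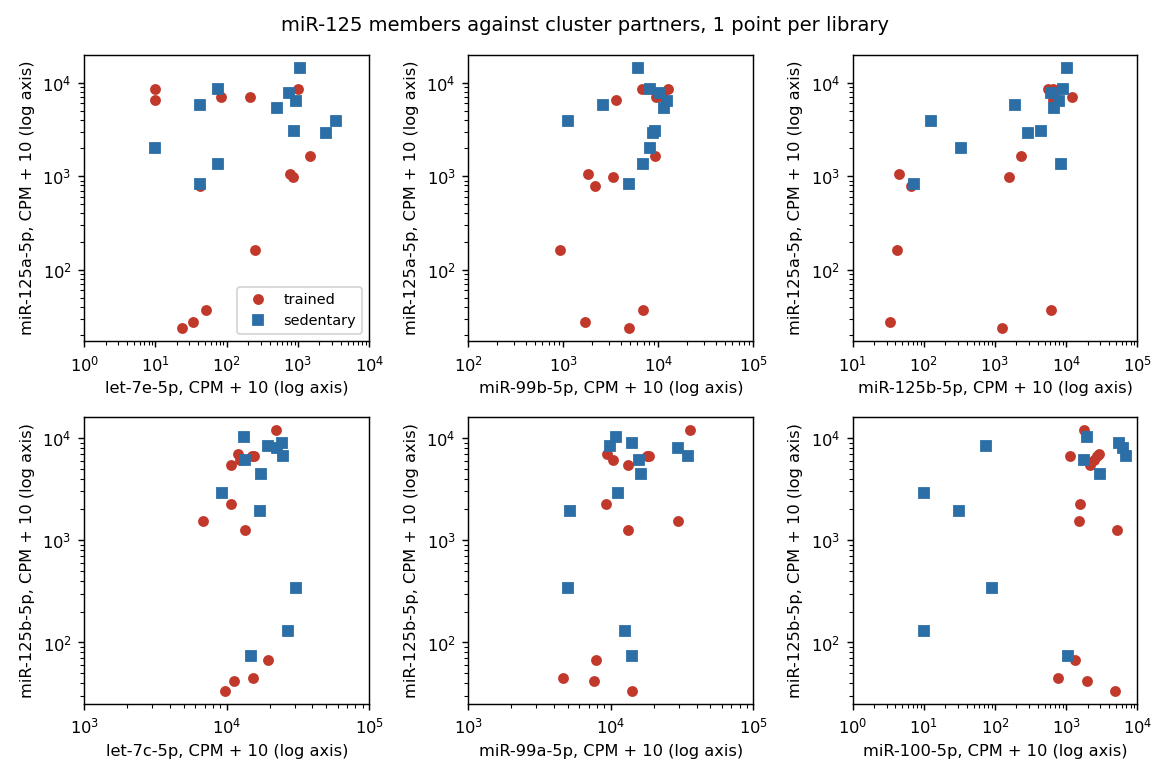
CPM + 10 of miR-125a-5p (top row) against let-7e-5p, miR-99b-5p and miR-125b-5p, and of miR-125b-5p (bottom row) against let-7c-5p, miR-99a-5p and miR-100-5p, all on log axes, 1 point per library, circles trained and squares sedentary. In the bottom row the 7 libraries with 23.5 to 328 CPM of miR-125b-5p lie apart from the other 18, at let-7c-5p and miR-99a-5p levels that overlap theirs. The plotted CPM is scaled by total counts, while the correlations in the text used TMM.

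Depth and tissue markers were set beside the members in the same way. With the total count, rho was -0.36 for miR-125a-5p over all libraries (permutation p = 0.0800, adjusted p = 0.171), -0.75 in the trained group (n = 13, permutation p = 0.00460, adjusted p = 0.0255) and 0.34 in the sedentary group (n = 12, adjusted permutation p = 0.550). In the trained group, depth and title number cannot be told apart, because the totals of both number ranges did not overlap. Within numbers up to 13 and above 13, rho with the total count was -0.091 and -0.24. For miR-125b-5p, rho with the total count was -0.83 in the trained group (n = 13, permutation p = 0.00095, adjusted p = 0.0143) and 0.41 in the sedentary group (n = 12, permutation p = 0.183, adjusted p = 0.459). Those values span both sets of libraries, and rho was -0.19 in the 18 libraries with at least 10 counts (permutation p = 0.442, adjusted p = 0.737).

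With the summed muscle list, rho was -0.44 for miR-125a-5p (n = 25, permutation p = 0.0282, adjusted p = 0.0846). For miR-125b-5p it was -0.15 within its 18 libraries (permutation p = 0.557, adjusted p = 0.835), but -0.65 over all 25, as given below. The members can be compared only over the same libraries. With the endothelial list, rho was -0.25 for miR-125a-5p (n = 25, permutation p = 0.239, adjusted p = 0.359). Within the 18 libraries it was -0.60 for miR-125b-5p (permutation p = 0.00903, adjusted p = 0.135). The last value did not pass after adjustment. The next ranges start from all 25 libraries, not from the 18. Without each of the 25 in turn, rho of miR-125b-5p with the endothelial list ran from -0.59 to -0.43. It passed in 6 of those 25 sets. With the smooth muscle list, rho ran from -0.42 to -0.24 for miR-125a-5p and from 0.092 to 0.26 for miR-125b-5p in the same sets, and never passed. Over all 25 libraries, 1 of these 8 passed, miR-125b-5p with the muscle list, where rho was -0.65 (permutation p = 0.00058, adjusted p = 0.0087) and r was -0.72 with and without the 2 farthest libraries. It was -0.22 in numbers up to 13 and -0.78 above 13 (n = 13, permutation p = 0.00264, adjusted p = 0.0396), -0.74 in the trained group and -0.45 in the sedentary group. The part of the muscle list in the low miR-125b-5p levels was not tested. Within the libraries with at least 10 counts, 0 of 8 passed, with the same loss of low levels and of libraries.

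By likeness over the 25 libraries, the rows nearest to miR-125a-5p were miR-6215 (rho 0.66), miR-328a-3p (0.61), miR-125b-5p with miR-3588 (0.56) and miR-30c-2-3p (0.52), against a median of 0.058 over 75 tested rows. miR-99b-5p stood 26th and let-7e-5p 35th in that order. For miR-125b-5p, within its 18 libraries, the rows with the highest rho were miR-152-3p (0.67), miR-30a-5p (0.61), miR-22-3p (0.53), let-7b-5p (0.43) and miR-92a-3p (0.43), with a median of 0.014 over 74 rows. miR-125a-5p was 14th there with 0.39, let-7c-5p 15th, miR-99b-5p 17th, miR-100-5p 32nd, miR-99a-5p 34th and let-7a-5p 53rd. Over all 25 libraries, the 5 rows nearest to miR-125b-5p were miR-99b-5p (0.60), miR-30c-2-3p (0.57), miR-125a-5p (0.56), miR-152-3p (0.54) and miR-181b-5p (0.51). The median was 0.064 over 74 rows. The nearest, miR-99b-5p, is a partner from the Mir125a cluster. Within the 18 libraries the rho of miR-99b-5p was 0.33, that of miR-30c-2-3p 0.39 and that of miR-181b-5p 0.41. These ranks are a description.

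The comparison of trained with sedentary rats asked whether endurance training altered the microRNAs of muscle mitochondria. No member passed the test. miR-125a-5p had 13.6 to 8547 CPM with a median of 1047 in the trained group, and 812 to 14483 CPM with a median of 4634 in the sedentary group. The groups overlapped, although the 5 lowest libraries were all trained. The log2 fold change, trained minus sedentary, was -0.77 (SE 0.65, 95% interval -2.07 to 0.53, edgeR quasi-likelihood p = 0.239, adjusted p = 0.916).

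miR-125b-5p had 23.5 to 11856 CPM with a median of 2275 in the trained group, and 63.7 to 10107 CPM with a median of 5248 in the sedentary group. Both groups spanned nearly the same range, and the highest and the lowest library were both trained. The log2 fold change was -0.32 (SE 0.69, 95% interval -1.70 to 1.07, edgeR p = 0.648, adjusted p = 0.973), and that of miR-3588 is the same value. Each interval reaches below -1 and includes 0, so the data neither show a change nor show that the levels were alike.

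The count of members called has to be read against the whole table, where edgeR called 0 of 76 tested rows (0%) and 1 (1.32%) had an unadjusted p under 0.05. DESeq2 and limma-voom also called 0, with 8 of 260 (3.08%) and 14 of 76 (18.4%) under 0.05 before adjustment. The size of the members' values depended on the tool. With limma-voom they were -2.46 for miR-125a-5p (p = 0.00286, adjusted p = 0.169) and -2.40 for miR-125b-5p (p = 0.00931, adjusted p = 0.169), so both were among the 14. limma-trend on the authors' normalized values + 1 gave -1.99 (p = 0.0210, adjusted p = 0.389) and -0.91 (p = 0.343, adjusted p = 0.652).

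The other tested rows of the clusters had values of both signs, and none passed. In the miR-125a cluster, the log2 fold change was -1.12 (SE 1.00; -0.20 without sedentary 29) for let-7e-5p and -0.19 (SE 0.38) for miR-99b-5p. In the miR-125b clusters it was -0.37 (SE 0.29) for let-7c-5p, 0.19 (SE 0.30; -0.026 by total counts alone) for miR-99a-5p, 0.65 (SE 0.79) for miR-100-5p and 0.62 (SE 0.44) for let-7a-5p. These sizes depended on the tool as those of the members did. limma-voom gave 2.13 for miR-100-5p (p = 0.0220, adjusted p = 0.169) and 1.17 for let-7a-5p (p = 0.0136, adjusted p = 0.169), limma-trend gave 2.19 and 2.41 for miR-100-5p (pseudocounts 1 and 0.5, adjusted p = 0.389 in both), and edgeR scaled by total counts alone gave 0.045 for miR-100-5p. limma-voom gave -0.67 for miR-99b-5p and -1.48 for miR-351-5p (adjusted p = 0.305 and 0.301).

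The edgeR value was -0.65 (SE 1.13) for miR-125b-1-3p, where it reversed to 0.55 without sedentary 15, and -0.28 (SE 0.73) for miR-351-5p. Of the 19 rows listed beside the members, 13 had a count and 8 were abundant enough to be tested, 3 with a positive and 5 with a negative value, with a median of -0.24. miR-99b-3p, with counts in 7 libraries, was left out by the filter on low counts. Without that filter edgeR called it (log2 fold change 3.93, SE 1.53, adjusted p = 0.0444), where it called 66 of 260 rows (25.4%), and 522 and 237 of its 835 counts lay in trained 25 and 21. Over all 76 tested rows, 37 were positive and 39 negative (51.3%), with a median of -0.0081.

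**Figure D4:**
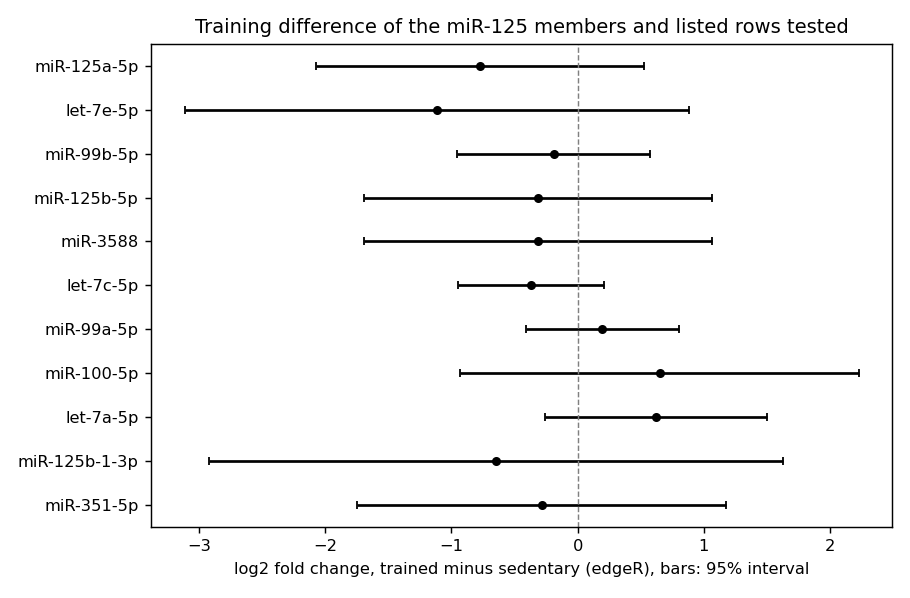
Log2 fold change, trained minus sedentary, of the 3 members and the 8 listed rows tested, by edgeR, with 95% intervals as bars and a dashed line at 0. Every interval includes 0, and the points of miR-125b-5p and miR-3588 are the same value.

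The group difference of miR-125a-5p was uneven over the title numbers. Among numbers 1 to 13, miR-125a-5p had 6550 ± 2542 CPM in trained (n = 6) and 6828 ± 4643 in sedentary rats (n = 6), with overlapping groups. The log2 fold change in this range was -0.15 (edgeR p = 0.768, adjusted p = 0.996). Among numbers above 13 it had 432 ± 481 CPM in trained (n = 7) and 3558 ± 2104 in sedentary rats (n = 6), with 5 of the 7 trained libraries below all 6 sedentary ones. The log2 fold change there was -2.52 (edgeR p = 0.0733, adjusted p = 0.751). The change between the ranges, tested in 1 fit, was -2.21 (SE 1.15, edgeR p = 0.0587, adjusted p = 0.496) and did not pass. In that test 1 of 76 rows (1.32%) passed, miR-150-3p, which is no member, and 7 (9.21%) had an unadjusted p under 0.05, neither member among them.

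For miR-125b-5p the corresponding means were 6610 ± 3089 and 6630 ± 3084 CPM up to 13, and 1279 ± 2189 and 3010 ± 3535 CPM above. The log2 fold changes were -0.067 and -0.47, and their change was -0.13 (SE 1.31, edgeR adjusted p = 0.949). In the trained group the higher numbers went with the deeper libraries, so title number and depth cannot be told apart there. In sedentary rats the levels of both members also had lower means above 13, while the totals of both ranges overlapped. With the title number as a covariate, the value of miR-125a-5p was -1.39 (edgeR p = 0.0464, adjusted p = 0.802) and that of miR-125b-5p -0.70 (p = 0.333, adjusted p = 0.896).

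miR-351-5p, which has the same seed and lies outside these clusters, had 7.29 to 4715 CPM with a median of 1128 in trained and 719 to 3989 CPM with a median of 2718 in sedentary rats, and the groups overlapped. It had 1 to 3 counts in trained 14, 18 and 26 and 28 or more in the other 22. Together the 3 microRNAs with the seed CCCUGAG held 1.07% ± 0.768 of counts, 0.899% ± 0.817 in trained and 1.26% ± 0.697 in sedentary libraries.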

How the data were processed

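Small RNA sequencing of muscle mitochondria was analysed in 25 libraries, grouped by their labels. The authors deposited raw counts per mature microRNA, with empty cells read here as 0. The authors also deposited normalized values, a signal equal to the count divided by 1 factor per library (largest relative deviation 1.59e-09). Of tools, fastp 0.20.0 and DESeq2 1.36 stand in the submitters' processing notes. No coordinates are printed, since aligner, counter, strand setting, genome build and annotation have no statement in the sources used here. RefSeq (GRCr8) gave sequences for 687 of 764 rows, and for 20 of the 22 rows described here (members and listed rows).

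edgeR 4.0.16 (R 4.3.3; TMM, quasi-likelihood, no covariates) tested raw counts of 76 rows kept by filterByExpr (minimum count 10, minimum total 15), which held 96.9% to 99.0% of counts. The biological coefficient of variation was 1.16. P-values were adjusted by Benjamini-Hochberg over all tested rows, with a threshold of 0.05. Correlations and likeness used log2 CPM with TMM library sizes and a prior count of 2 (numpy 2.4.6). Printed and plotted CPM levels used total counts. Alternatives used DESeq2 1.42.0, limma 3.58.1, and other scalings, filters, covariates and libraries. The tests were tried on simulated data. Within groups no library was a copy of another (chi-square over its degrees of freedom at least 20.7 in each of 144 pairs).

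Named rows were the members, listed cluster rows with a count, rows of the same seed or reverse complement, and the 5 rows most like each member. The neighbours of miR-125b-5p within 18 libraries, miR-150-3p and the rows at 0 were named after their values were seen. Members, lists and tests were chosen with earlier results of these data known.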

Additional observations from a re-analysis of the deposited data

How the results depend on the processing

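Both members kept a negative training difference and missed the threshold in all 15 alternative settings (-2.52 to -0.15 for miR-125a-5p, -2.40 to -0.067 for miR-125b-5p) and without each library in turn (-0.94 to -0.49 and -0.49 to -0.017). No paired analysis was possible because the labels name no pairs of rats across the groups. Without a filter on low counts edgeR called 66 of 260 rows (25.4%), none of them a member but miR-99b-3p among them, and without each library it called 0. The training difference of miR-125b-1-3p became 0.17 and 0.11 with limma-trend (pseudocounts 1 and 0.5) and 1.43 among title numbers up to 13, and ran from -0.88 to 0.55 without each library. Among those numbers miR-351-5p became 0.022 and miR-99b-5p 0.29, and miR-99a-5p became -0.026 by total counts and -0.028 among numbers above 13. The change of the training difference between number ranges ran from -1.63 to 0.38 for miR-125b-5p without each library, with 7 of 25 values positive. For miR-125a-5p it ran from -2.69 to -1.91 without each library (lowest edgeR p = 0.0288, lowest adjusted p = 0.337). It was -2.99 and -2.33 in the 2 other settings (lowest edgeR p = 0.0142, lowest adjusted p = 0.269), so the unadjusted p depended on the setting and no adjusted p passed.

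Of the 7 member and partner correlations, 2 passed over all libraries by Spearman's rho, 1 by Pearson's r with or without the 2 farthest libraries, and 0 within either number range, within either group, by rho without the 2 farthest, and among libraries with at least 10 counts of both rows by rho, r, or r without the 2 farthest. Without each library 1 to 2 passed (1 without trained 21). Of the 8 with depth and markers, 1 passed by rho, 2 by Pearson's r, by total counts, by DESeq2 size factors and without the library under 0.25 of the median total, 4 in trained rats, and 0 in sedentary rats, in numbers up to 13, and among libraries with at least 10 counts by rho, r, or r without the 2 farthest. Without each library 1 to 3 passed (3 without sedentary 7 or sedentary 8; 2 without trained 17, trained 25, or sedentary 15, 19, 29 or 30).

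These correlations took the opposite sign from that over all libraries; the cause was not tested. For miR-125a-5p, up to number 13: let-7e-5p -0.22, miR-99b-5p -0.44 and the muscle list 0.077. In trained rats: let-7e-5p -0.0083. In sedentary rats: miR-99b-5p -0.31, total count 0.34, muscle list 0.0070 and endothelial list 0.063. By total counts: smooth muscle list 0.25 and endothelial list 0.0038. By DESeq2 size factors: smooth muscle list 0.066. Above number 13: endothelial list 0.30. For miR-125b-5p with let-7c-5p: 0.25 by total counts, 0.27 up to number 13, and among libraries with at least 10 counts 0.36 by rho, 0.48 by r and 0.33 by r without the 2 farthest. With miR-99a-5p: -0.021 without the shallowest library and -0.016 by r without the 2 farthest, and -0.053 to 0.16 without each library. With miR-100-5p: -0.23 in trained rats, -0.032 and -0.051 without the 2 farthest by rho and r, and -0.079 by r with at least 10 counts. With let-7a-5p: 0.19 by r with at least 10 counts and without the 2 farthest. With the total count: 0.41 in sedentary rats. With the smooth muscle list: -0.11 in trained rats and -0.0010 with at least 10 counts. With the endothelial list: 0.13 above number 13. Counts of 1 to 9 per library limit the low values of both members.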

Other observations

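The equality of miR-125b-5p and miR-3588 was part of a wider pattern in the count table. Among the 687 rows with a RefSeq sequence, 32 pairs were reverse complements of each other over the whole length of the shorter row, and 20 of these pairs had a count. In 9 of the 20 the counts were equal in all 25 libraries, and in 16 the totals lay within 10% of each other. All 4 pairs with a count that were exact over the full length of both rows were equal in every library, namely miR-125b-5p with miR-3588, let-7a-5p with miR-3596a, miR-210-3p with miR-3574, and miR-378a-5p with miR-3557-3p. let-7e-5p had 1278 counts and miR-3596c, annotated beside Mirlet7e, had 1277. In 3 pairs 1 row was at 0, namely miR-29a-3p with miR-3556a, miR-29c-3p with miR-3556b, and miR-9a-5p with miR-9b-3p, where the row with counts had 46, 2 and 45.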
